A study of Mus musculus with 3 samples.

Results

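The kallikreins of the skin and their inhibitors were described here as a set of 10 genes that act in the shedding of the outer epidermis, namely Klk5, Klk6, Klk7, Klk8, Klk10, Klk11, Klk13 and Klk14 and the inhibitor genes Spink5 and Cst6. A gene was taken as measured when the platform annotation gives a probe set its symbol. Of the 10 genes, 9 had such a probe set, 1 each, among 18193 measured genes, and Klk14, a trypsin-like protease that activates other kallikreins, had none named here. RNA from the back skin of male mice was pooled by group, and 1 Affymetrix array was run on each pool. WT were C57BL/6J mice and KO were homozygous Interleukin-10 knockout mice with the tm1Cgn allele, bred in crosses with C57BL/6J mice, and both were fed an AIN-93-based diet. KOE were the same knockout mice fed a form of this diet with 8% pESM, a powder of eggshell membrane. The pESM diet also held less casein and less β-corn starch than the control diet. Feeding began at 4 weeks of age and lasted 28 weeks, and the skin was freed of the white fat beneath the dermis. Other measurements of the study were made on 5 WT, 7 KO and 6 KOE mice, but no source used here says which mice a pool was made from. With 1 array per group, no difference between mice could be tested, and each ratio below compares pools.

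Kallikreins are secreted serine proteases that are made as inactive precursors in the granular layer of the epidermis. In human skin KLK5, a trypsin-like enzyme, activates itself and KLK7, a chymotrypsin-like enzyme, and together they cleave corneodesmosin and the desmosomal proteins that hold dead keratinocytes together. Spink5 encodes LEKTI, an inhibitor with many Kazal domains that blocks several kallikreins and is lost in Netherton syndrome. Cst6 encodes cystatin M/E, which inhibits cysteine proteases such as cathepsin L and legumain and is needed for normal cornification in mice.

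The kallikrein genes lie side by side on chromosome 7. In the RefSeq annotation their order is Klk14, Klk13, Klk12, Klk11, Klk10, Klk9, Klk8, Klk7, Klk6, Klk5, Klk4, Klk15 and Klk1, so that members with unlike ratios were close neighbors. The 250 bases before the transcription start are shown for 5 of them, which stand for the patterns seen on the arrays: Klk5 and Klk11 were higher in KO than in WT, Klk13 was lower in KO, Klk6 was lower in KOE, and Klk7 differed little. The sequences are from RefSeq, build GRCm38.p6, written 5′ to 3′, and capitals mark matches on either strand to the letters searched. A KLF box was read as CACCC and an Sp1 box as GGGCGG. An AP-1 site was read as TGANTCA and a TATA box as TATAAA. The run TTAAAA, which resembles a TATA box, was chosen after the sequences were seen.
Klk5 (chr7:43842019-43842268, + strand): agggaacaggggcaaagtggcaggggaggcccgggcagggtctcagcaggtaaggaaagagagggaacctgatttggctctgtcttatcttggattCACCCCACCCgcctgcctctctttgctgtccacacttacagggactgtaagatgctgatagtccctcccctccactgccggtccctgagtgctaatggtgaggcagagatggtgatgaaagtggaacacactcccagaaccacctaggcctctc
Klk11 (chr7:43774367-43774616, + strand): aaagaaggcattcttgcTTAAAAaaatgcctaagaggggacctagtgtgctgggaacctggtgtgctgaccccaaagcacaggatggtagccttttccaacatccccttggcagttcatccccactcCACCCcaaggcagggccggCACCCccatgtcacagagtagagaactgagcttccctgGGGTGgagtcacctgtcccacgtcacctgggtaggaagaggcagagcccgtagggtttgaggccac
Klk6 (chr7:43824294-43824543, + strand): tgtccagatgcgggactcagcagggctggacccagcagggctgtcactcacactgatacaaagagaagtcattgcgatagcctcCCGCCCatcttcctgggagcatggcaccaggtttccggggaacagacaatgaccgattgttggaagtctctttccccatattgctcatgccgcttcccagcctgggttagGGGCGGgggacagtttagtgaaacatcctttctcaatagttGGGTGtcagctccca
Klk13 (chr7:43712317-43712566, + strand): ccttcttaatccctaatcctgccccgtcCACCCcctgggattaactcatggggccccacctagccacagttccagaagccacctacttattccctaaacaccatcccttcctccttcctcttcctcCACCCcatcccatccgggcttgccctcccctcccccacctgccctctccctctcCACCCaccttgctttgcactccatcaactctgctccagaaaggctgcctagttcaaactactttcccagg
Klk7 (chr7:43811044-43811293, + strand): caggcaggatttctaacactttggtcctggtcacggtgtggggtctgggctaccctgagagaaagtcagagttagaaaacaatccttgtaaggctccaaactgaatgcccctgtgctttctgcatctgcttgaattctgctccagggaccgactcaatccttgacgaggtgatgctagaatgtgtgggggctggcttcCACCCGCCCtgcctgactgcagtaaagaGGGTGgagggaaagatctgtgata
The start used for Klk5 lies inside the span that RefSeq gives the gene, and RefSeq lists a further start for Klk6 and for Klk11, whose windows are not shown. In Klk7 a CACCC and a GGGCGG match overlap by 2 bases and print as 1 capital run.

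All 8 kallikrein genes of the set had such a window, 10 windows in all. A CACCC match was found in 7 of these windows, 1 each of 7 genes, against 52.0% of all 32851 promoter windows. Klk5 holds 2 such matches that adjoin, and Klk13 and Klk11 hold 3 each, so genes with opposite ratios of KO to WT shared this match. A GGGCGG match was found in 4 of the 10, both of Klk6 and those of Klk7 and Klk8, against 32.7% of all windows. None of the 10 windows held TATAAA or TGANTCA, which 12.4% and 6.75% of all windows hold. TTAAAA was found in 4 of the 10, against 17.7%. A match describes letters in these windows only.

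All values below are linear signals, which the authors brought to the same trimmed mean of 500 on each array. A gene passed the cut-off if its signals differed by at least 1.5-fold and reached 40 on at least 1 of the 2 arrays. Both limits are given in the methods of the study, but asking for the signal limit on only 1 of the 2 arrays was chosen here. With 40 asked of both arrays, Klk13 is not counted in KO vs. WT or KOE vs. KO. For Il10, the altered gene, the signal was 17.0 (WT), 679.9 (KO) and 401 (KOE). Which part of the altered allele its probe set reads was not tested, so this signal does not check the genotype. The pools held the RNA of skin, with Krt5 at 19214 to 24499, Krt10 at 29571 to 36463 and Col1a2 at 26024 to 33069. Fewer cells of a type and less RNA per cell cannot be told apart in such pools.

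**Figure D1:**
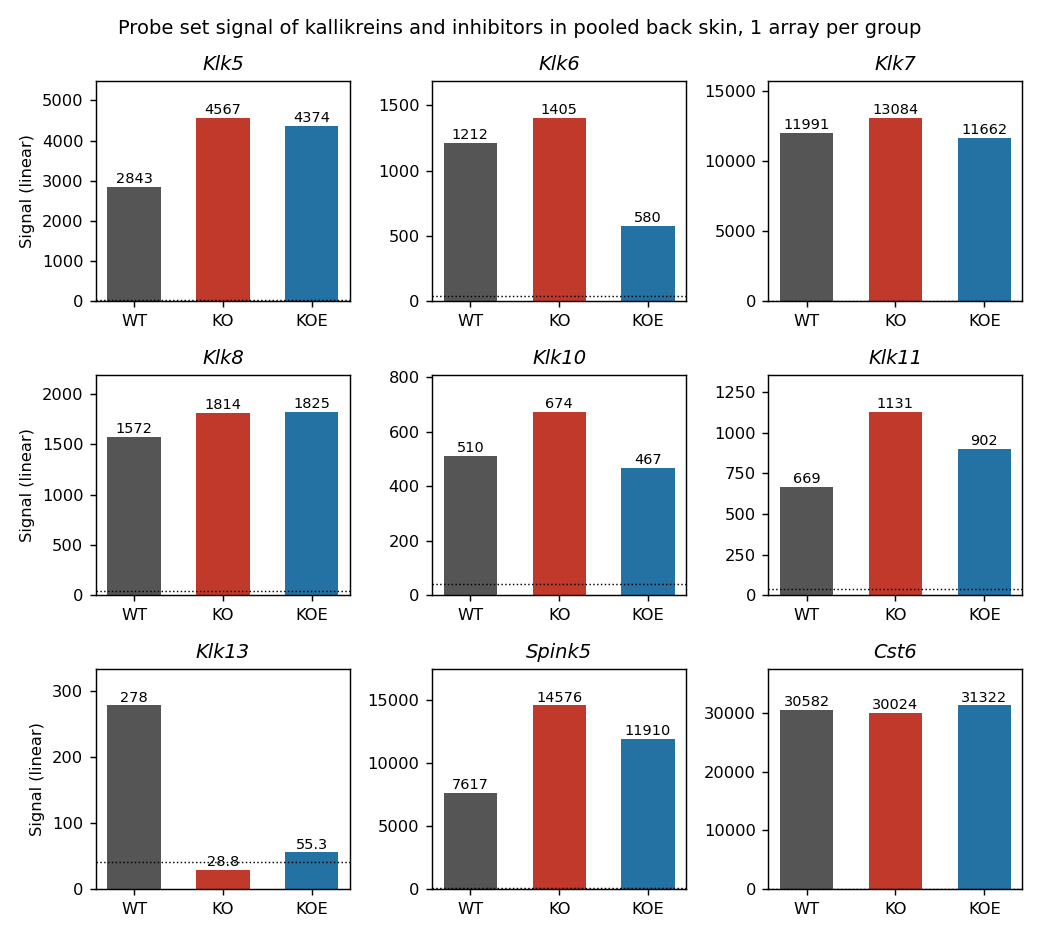
Signal of each member on a linear scale in the WT, KO and KOE arrays, 1 bar per array of pooled RNA, so that no error bar can be drawn. The dotted line marks a signal of 40, and vertical axes differ between panels. Klk5, Klk11 and Spink5 are lowest in WT, Klk6 is lowest in KOE, Klk13 falls under 40 in KO, and Klk7 and Cst6 are nearly level.

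Of the 9 measured members, Klk5, Klk11 and Spink5 passed the cut-off as higher in KO compared to WT, and Klk13 as lower. Of the 14495 genes that reached 40 on at least 1 of the 2 arrays, 10.9% were higher and 14.5% were lower by the same limits. The log2 ratio had a median of 0.21 over the members and of 0.01 over all genes that reached 40. In either direction 25.4% of the genes passed, and 4 of the 9 members did.

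Klk5, whose human counterpart starts the cascade, gave signals of 2843 for WT, 4567 for KO and 4374 for KOE. It was thus 1.61-fold higher in KO and 1.54-fold higher in KOE than in WT, and KOE and KO differed by a factor of 0.96. Both arrays of knockout skin lay above the WT array. After cyclic loess normalization, a smooth fit between arrays along signal, the log2 ratios of 0.68 and 0.62 became 0.57 and 0.53, both under the cut-off.

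Klk7, the chymotrypsin-like enzyme, reached 11991 in the WT array, 13084 in KO and 11662 in KOE. The 3 arrays were nearly level, with a ratio of 1.09 between KO and WT, 0.89 between KOE and KO and 0.97 between KOE and WT. Its log2 ratio of KO to WT ranged from −0.04 to 0.40 over the ways of processing, so that even its direction was not fixed. The ratio of KO to WT was smaller for Klk7 than for Klk5. In human skin KLK5 activates KLK7 as a protein, whereas these signals read RNA. Neither the protein nor the activity of any protease was measured on these arrays.

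Klk8, a trypsin-like kallikrein also known as neuropsin, had 1572 in WT, 1814 in KO and 1825 in KOE. Its ratio of KO to WT was 1.15 and that of KOE to KO was 1.01. Klk10, a kallikrein of epithelial cells, had 510.5 in WT, 674 in KO and 467 in KOE. The KO array was the highest of the 3, by 1.32-fold over WT and 1.45-fold over KOE, both under the cut-off as deposited. After scaling to a common median both were past it, with log2 ratios of 0.67 and −0.69.

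Klk11, another trypsin-like kallikrein, had 669 in WT, 1131 in KO and 902 in KOE. It was 1.69-fold higher in KO than in WT, and the KOE array lay between the others, 1.35-fold that in WT. The ratio of KO to WT was past the 1.5-fold limit under each other scaling and with 40 added to every signal, with log2 values from 0.72 to 1.03.

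Klk6, a trypsin-like kallikrein that is best known from the nervous system, had 1212 in WT, 1405 in KO and 579.6 in KOE. WT and KO were close, with a ratio of 1.16, while KOE was 2.42-fold lower than KO and 2.09-fold lower than WT. As deposited, no other member passed the cut-off as lower in KOE vs. KO, and Klk6 passed it under each other scaling and with 40 added to every signal, with log2 ratios from −1.44 to −1.22. Its neighbors on the chromosome, Klk5 and Klk7, had log2 ratios of KOE to KO of −0.06 and −0.17.

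Klk13, a trypsin-like kallikrein, went the other way, with 278 in WT, 28.8 in KO and 55.3 in KOE. The WT array stood far above both knockout arrays. Since the KO signal lies under 40, the ratio is given as a bound, at least 6.95-fold lower in KO with that signal set to 40, and Klk13 was 5.02-fold lower in KOE than in WT. The 1.92-fold higher signal in KOE than in KO passes the cut-off but rests on the KO signal under 40, and it was 1.38-fold with that signal set to 40.

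Spink5 had the largest ratio of KO to WT among the members that were higher. The WT array gave 7617, the KO array 14576 and the KOE array 11910.4. Spink5 was thus 1.91-fold above WT in KO and 1.56-fold above WT in KOE. The KOE array lay between the others, 1.22-fold under KO. On the log2 scale the ratio of KO to WT was 0.94 for Spink5 against 0.68 for Klk5 and 0.13 for Klk7. These are gaps of 0.25 and of 0.81, and the smallest gap to a kallikrein was 0.18, for Klk11. For KOE vs. KO the log2 ratio was −0.29 for Spink5, against −0.06 for Klk5, −0.17 for Klk7 and 0.01 for Klk8. Klk6, Klk10 and Klk11 lay further down than Spink5, at −1.28, −0.53 and −0.33. Klk13 lay above it, at 0.94, which rests on a KO signal under 40. The ratio of Spink5 in KOE vs. WT was under the cut-off after cyclic loess normalization, with a log2 value of 0.51.

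Cst6 had 30582 in WT, 30024 in KO and 31322 in KOE. The arrays were level, at a ratio of 0.98 between KO and WT and of 1.04 between KOE and KO. No array had a signal above 42058, and whether the scanner compresses differences at such signals was not tested.

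**Figure D2:**
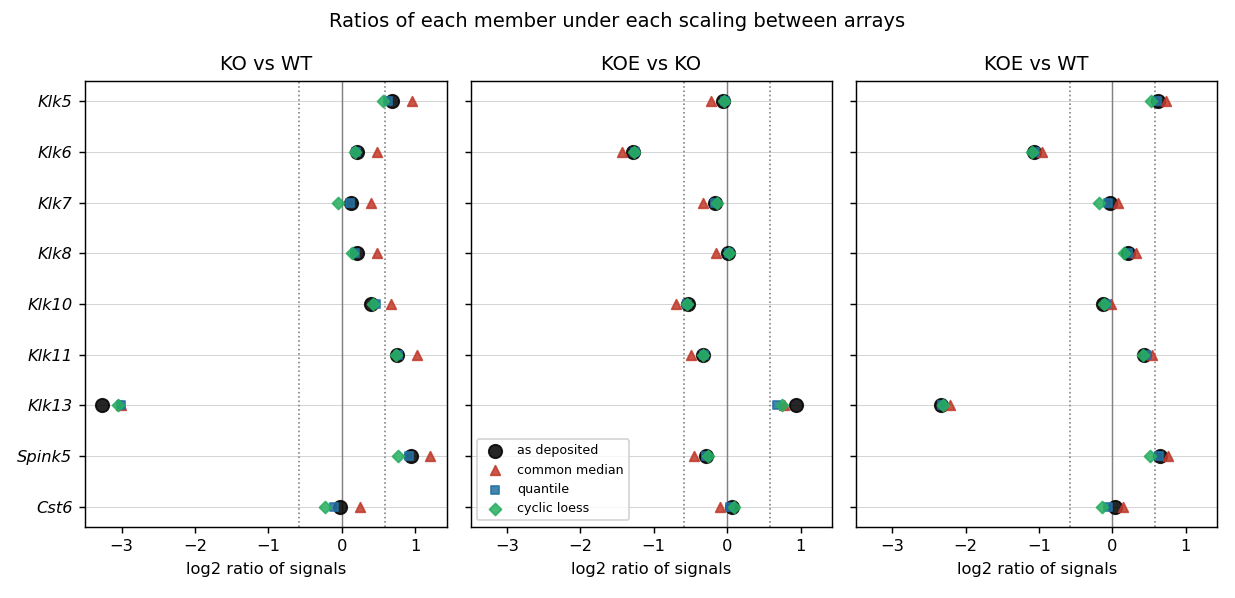
Log2 ratio of signals of each member in the 3 comparisons, as deposited and after 3 other scalings between arrays, from 1 array per group. Dotted lines mark 1.5-fold. For KO vs. WT the point of Klk13 as deposited, at −3.27, rests on a KO signal under 40, and for KOE vs. KO that of Klk6 is at −1.28, and under the other scalings it stays below the dotted line.

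In KOE vs. KO, Klk6 was lower and Klk13 higher past the cut-off, and the other 7 members were not past it. By the same limits 5.33% of 14594 genes were lower and 10.9% were higher. Either way, 16.2% of the genes passed. The members had a median log2 ratio of −0.17, and the genes that reached 40 had one of 0.02. In KOE vs. WT, Klk5 and Spink5 were higher and Klk6 and Klk13 lower, where 12.4% and 10.4% of 14784 genes were, with medians of 0.03 and 0.05. The KO array enters both KO vs. WT and KOE vs. KO, and these ratios are therefore not independent.

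The spread between probe sets on the same arrays was read from genes with several probe sets. Between probe sets of the same gene, the SD of the log2 ratio of KO to WT was 0.13 where the mean signal was at least 5000, 0.16 from 1000 to 5000, 0.30 from 200 to 1000 and 0.48 from 40 to 200, over 224 to 1982 genes. The ratios of KO to WT for Spink5, Klk5 and Klk11 were larger than the SD of their range, and those of Klk7, at 0.13, and Cst6 were not. The ratio of Klk13 was larger in size too. So were those of Klk6, Klk8 and Klk10, at 0.21, 0.21 and 0.40 against SDs of 0.16, 0.16 and 0.30. These last were not past the cut-off, so a ratio above the SD does not set apart the members past it. For KOE vs. KO the SD was 0.23 from 200 to 1000, against −1.28 for Klk6. Klk13 was above its SD too, and so in size were Klk7, Klk10, Klk11 and Spink5, which were not past the cut-off. Spink5 had −0.29 and Klk7 −0.17, both against an SD of 0.11. Each member has only 1 probe set, so none of them could be checked against another. Neither the spread between mice nor that between repeated arrays of a pool is contained in these SDs.

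Markers of the basal and granular layers of the epidermis had medians in the direction of Klk5, Klk11 and Spink5 between KO and WT. Of 9 measured genes of the basal layer, 5 were higher in KO, and no gene was lower. The 5 were Itgb4, Itga6, Col17a1, Dst and Lamb3. Krt5, Krt14, Krt15 and Trp63 were not past the cut-off, with ratios of 1.22, 1.04, 1.23 and 1.19. The list had a median log2 ratio of 0.65, and of 0.50 after cyclic loess normalization. Its signals summed to 90992 for WT, 118651 for KO and 116725 for KOE. Of 19 measured genes of the granular and cornified layers, where kallikreins are made, 6 were higher and 3 lower, at a median log2 ratio of 0.35. This median was 0.15 after cyclic loess normalization, where 6 genes were higher and 1 was lower, as after quantile normalization. After scaling to a common median 12 genes were higher and 1 was lower. That scaling also raised the share of all 18193 genes that were higher from 8.70% to 18.6%, and the share lower fell from 11.6% to 7.10%. The summed signal of the list was lowest in WT, with 265175 in KO and 256868 in KOE. Lce1c, a protein of the cornified envelope, had 6040 in WT, 12740 in KO and 11525 in KOE, while Krtdap, which encodes a secreted protein of differentiating keratinocytes, had 27489, 34438 and 33050. The 3 lower genes were Tgm3, Casp14 and Krt2. Tgm3 had the largest difference of the list, with 481 in WT, 88.6 in KO and 93.9 in KOE. Casp14 had 635, 422 and 315, and Flg, not past the cut-off in KO vs. WT, had 2139, 1795 and 1326. The spinous layer had a median log2 ratio of 0.09 over 8 genes, of which 1 was past the cut-off, as lower. The part of the epidermal share of the RNA in the ratios of Klk5, Klk11 and Spink5 was not tested.

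Markers of the growing hair follicle lay in the direction of Klk13 between KO and WT. Of 23 measured genes of the inner root sheath and hair shaft, 22 were lower in KO compared to WT as deposited, and their signals summed to 258511 for WT, 5593 for KO and 5699 for KOE. Krt25, a keratin of the inner root sheath, had 31928 in WT, 51.5 in KO and 21.4 in KOE. Both knockout pools were thus low for the hair genes, as they were for Klk13. In KOE vs. KO, 5 of the 23 genes were lower, each with a KOE signal under 40, and no gene was higher. Klk13 counted as higher there, which rests on its KO signal under 40. The part of the follicle in the Klk13 ratio was not tested.

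Of 12 measured markers of neutrophils and mast cells, 8 were lower in KOE compared to KO, as was Klk6, and 1 was higher. Among the 8, Ltf and Tpsb2 rest on a KOE signal under 40. With that signal set to 40 they were 1.35-fold and 1.08-fold lower, under the cut-off. The gene that was higher rests on a KO signal under 40. The signals of the 12 summed to 3347 for WT, 4582 for KO and 2454 for KOE. Cpa3, a protease of mast cells, had 744 (WT), 1404 (KO) and 729 (KOE), so that KOE and WT were nearly level, while Klk6 was lower in KOE than in WT too. Against WT, KOE was higher for 3 and lower for 4 of the 12. Of the defining genes of neutrophils, named after their values were seen, Elane had 46.1, 26.0 and 44.4 and was the gene counted as higher in KOE vs. KO, Mpo had 29.1, 47.7 and 59.8, and Ltf had 43.9, 54.1 and 36.0. Of 10 measured stress keratins and genes induced with them, 5 were lower in KOE vs. KO, with S100a8 at 982 in WT, 815 in KO and 293 in KOE. The strongest of the list were not past the cut-off, Krt17 with 11568 in KO and 13515 in KOE, and Krt6a with 10525 and 9594. The signals of this list summed to 46832 for WT, 31526 for KO and 31920 for KOE, so the sum was not lower in KOE than in KO. S100a8 and S100a9 are in both lists and were counted in each. The part of these cells and genes in the Klk6 ratio was not tested.

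The 5 other genes whose pattern was nearest to that of Klk6 were Ecm2, Cluap1, Mrc1, Wdr48 and C1qb. They were found among 4863 genes of like signal by the distance of their log2 ratios in KO vs. WT and KOE vs. KO, over 3 arrays, and that distance was 0.20 for Ecm2 and 0.36 for C1qb. Ecm2, a matrix protein gene, had 709 (WT), 777 (KO) and 364 (KOE), and Mrc1, a receptor of macrophages, had 1826, 2612 and 1189. With 3 values per gene such likeness is a description only.

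**Figure D3:**
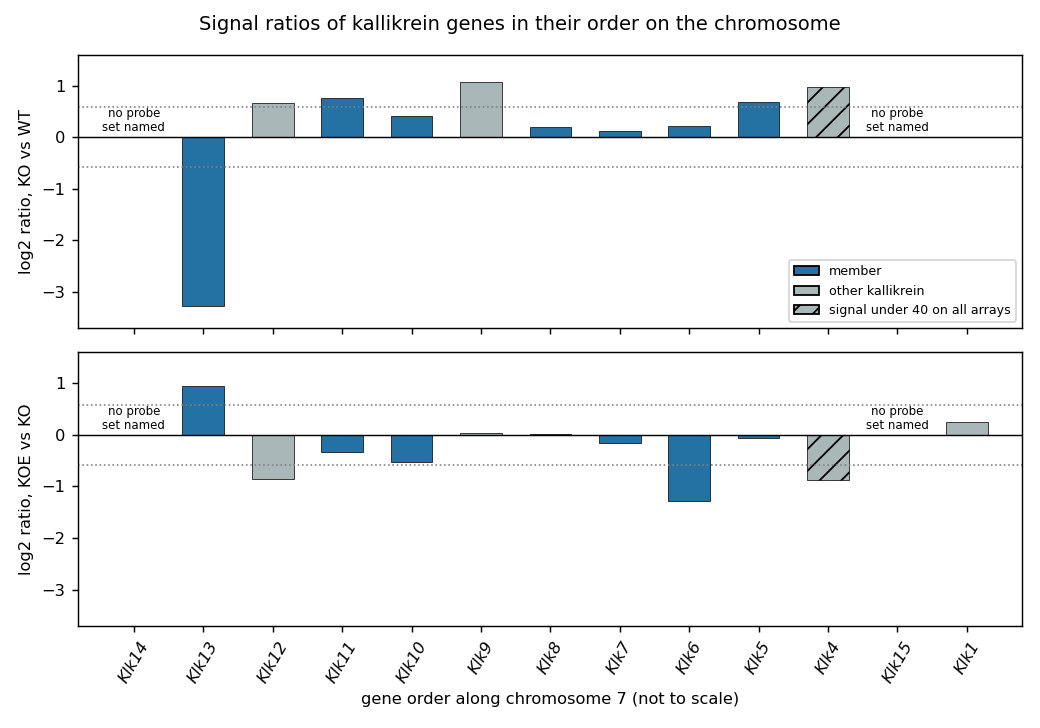
Log2 ratio of signals of the kallikrein genes in their order along chromosome 7, KO vs. WT above and KOE vs. KO below, from 1 array per group. Blue bars are members, gray bars other kallikreins, hatched bars genes under 40 on all arrays, and dotted lines mark 1.5-fold. In KO vs. WT the genes from Klk12 to Klk5 lie above 0 and Klk13, which precedes them in the row, is at −3.27, which rests on a KO signal under 40.

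Klk9 and Klk12 are kallikrein genes that lie between the members on the chromosome. Klk9 had 117 in WT, 247 in KO and 253 in KOE, a 2.11-fold higher signal in KO than in WT. Klk12, named after its values were seen, had 72.9 in WT, 115 in KO and 63.5 in KOE, highest in KO like Klk10 and Klk11. Of 12 other kallikreins measured, 3 were higher in KO, no gene was lower, and 4 reached 40 in WT or KO. Klk1, the tissue kallikrein, had 209 in WT, 211 in KO and 249 in KOE, read with a probe set that may also bind transcripts of near-identical Klk1 relatives. The third gene counted as higher in KO, Klk1b8, had 17.6 in WT, 40.3 in KO and 1.03 in KOE. Its KO signal was just above the limit of 40. Klk1b11 had 4.30, 2.39 and 41.3, and such signals of closely related genes are uncertain.

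Of 21 other proteases of the epidermis, KO was higher than WT for 2 and lower for 4. The median log2 ratio was −0.08, and 0.18 after scaling to a common median, so that its direction was not fixed. Tmprss4, a membrane serine protease, had 785 in WT, 2228 in KO and 1474 in KOE. Prss53, a serine protease, had 1068 (WT), 159 (KO) and 205.0 (KOE), and was 6.71-fold lower in KO. Ctsl, the cathepsin that cystatin M/E inhibits, had 14888, 14400.5 and 12311, and Asprv1, a protease that processes filaggrin, had 11237, 14459 and 12041. Plg, the plasminogen gene, had 3.56 (WT), 76.0 (KO) and 33.3 (KOE), and of these signals only that of KO reached 40. In KOE vs. KO, 2 of the 21 were lower and no gene was higher, namely Tmprss4 by 1.51-fold and Plg.

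Of 25 other protease inhibitors, KO was higher than WT for 10 and lower for 4. The median log2 ratio was 0.50, and it was 0.30 with a floor of 40 under all signals. Slpi, an inhibitor of leukocyte elastase, had 164 in WT, 565 in KO and 295 in KOE. Spink12, a Kazal inhibitor gene like Spink5, had 146 (WT), 3.62 (KO) and 42.0 (KOE), and was at least 3.65-fold lower in KO with that signal set to 40. Wfdc12, a whey acidic protein inhibitor, had 446, 197 and 582, so that KOE was 2.96-fold above KO. The cystatin genes Cst3 and Cstb had ratios of KO to WT of 1.23 and 0.81. In KOE vs. KO, 3 inhibitors were higher and 5 lower, and the median log2 ratio was −0.19.

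Among 13 measured genes for substrates of kallikreins or other proteases and for signals downstream of kallikreins, KO was higher than WT for 4 and lower for 2. The median log2 ratio was 0.18, and it was 0.15 with a floor of 40 under all signals. Dsg1a, which encodes a desmosomal cadherin that kallikreins cleave, had 9927 (WT), 12278 (KO) and 13592 (KOE), and Dsc1, another desmosomal cadherin, had 10947, 12151 and 11333. Both were under the cut-off in KO vs. WT. Cdsn, the corneodesmosin gene, named after its values were seen, had 1366 in WT, 1840.3 in KO and 1378 in KOE, with ratios of 1.35 and 0.75. Tgm3, a transglutaminase of the cornified envelope and the hair, had 481, 88.6 and 93.9. Tslp, a cytokine that keratinocytes release after kallikrein signaling through the PAR2 receptor, had 100.4 (WT), 303 (KO) and 140 (KOE), and Il1b, an inflammatory cytokine, had 218, 486 and 142. In KOE vs. KO, 3 were lower and 1 was higher, the latter the cadherin gene Dsg1b.

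**Figure D4:**
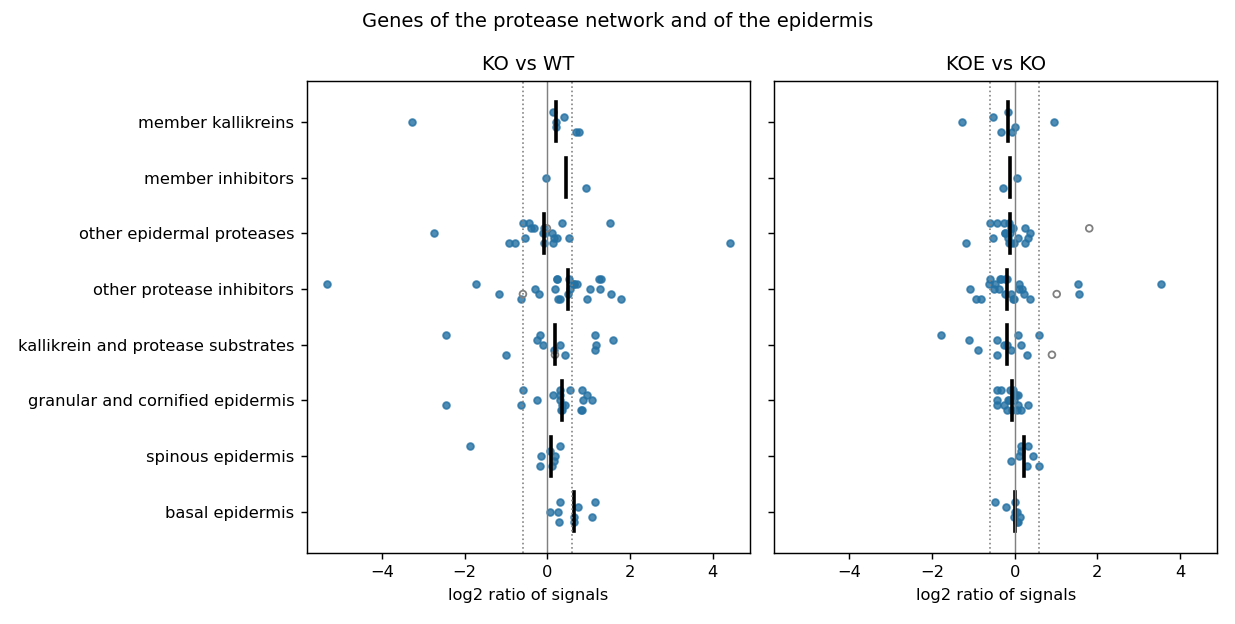
Log2 ratio of signals of each measured gene of 8 lists, with a panel each for KO vs. WT and KOE vs. KO and 1 array per group. Each point is a gene, open points did not reach 40 on either array, black bars are medians and dotted lines mark 1.5-fold. In KO vs. WT the medians of the basal epidermis and of the other protease inhibitors lie at 0.65 and 0.50, and in KOE vs. KO the medians of all 8 lists lie between −0.19 and 0.24.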

How the data were processed

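Signal intensities were deposited, linear in scale. The authors computed them with Affymetrix's Microarray Analysis Suite from 1 Mouse Genome array per group, hybridized with cRNA from 250 ng of pooled RNA. Per array, 64 control probe sets were left out of 45101, and no detection calls or images were used here. Ratios were taken from these signals. The platform annotation named the probe sets, with symbols updated by gene identifier, and where a gene had several, the brightest on average was used. Each member has 1 probe set, with an identifier that carries no cross-hybridization suffix. With 1 array per group there was no test across mice, hence no p-value.

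Named genes were all members and, from each list, the 2 with the highest mean signal and the 2 with the largest log2 ratio in either direction, among genes that reached 40, for each of KO vs. WT and KOE vs. KO, though for markers of other cells only some are given. Members and lists were chosen with earlier results of these data known, and the lists share genes (Flg, Tgm3, Cdsn, Casp14, Asprv1, S100a8, S100a9 and the desmosomal cadherins).

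Alternatives changed the signal limit, the array that must reach it, the fold limit, the scaling (common median, quantile, cyclic loess at span 0.7, run for 3 iterations), an offset of 40, the probe sets used and, added after the data were seen, a floor of 40. Scripts ran in Python 3.11.15 (numpy 2.4.6, pandas 2.3.3) and R 4.3.3 (limma 3.58.1).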

Additional observations from a re-analysis of the deposited data

How the results depend on the processing

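Of 11 alternatives, 5 can change the ratio of a member, since each member has 1 probe set. Of their 135 member ratios, 110 moved by less than the SD between probe sets of a gene in the same range of signal. The other 25 moved more, of which 15 were under a common median and 6 after cyclic loess normalization. Under a common median 12 moved by less. The floor of 40 can change only the Klk13 ratios that use the KO array. Of its 26 ratios counted among the 110, all but that of Klk13 in KO vs. WT were thus fixed in advance. No ratio past the cut-off changed sign. Under a common median the members' median log2 ratio was 0.48 between KO and WT and −0.33 between KOE and KO. In KO vs. WT, 4 members were past the cut-off, and 1 with a fold limit of 2 (Klk13). With 40 needed on both arrays Klk13 was not counted there. In KOE vs. KO, 2 were past it, and 1 (Klk6) with 40 needed on both arrays, a signal limit of 80, a fold limit of 2, 40 added to every signal, or signals under 40 set to 40. In KOE vs. WT, 4 were past it, and 2 (Klk6 and Klk13) with a fold limit of 2 and after cyclic loess normalization. The cause of the last was not tested, while the others follow from the limits set. Scaling to a common median adds 0.27 to the log2 ratios of KO vs. WT, −0.16 to those of KOE vs. KO and 0.11 to those of KOE vs. WT. Among all genes that passed in KO vs. WT, the share higher in KO was 42.9% as deposited, 72.4% with a common median, 57.4% with quantile and 52.5% with cyclic loess normalization. For KOE vs. KO these shares were 67.1%, 47.1%, 49.6% and 48.7%, and for KOE vs. WT 54.3%, 66.6%, 58.2% and 51.5%. No paired analysis was possible because each group has 1 array. Signals under 40 limit what can be said of Klk13.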

Other observations

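Genes of other cell types and layers of the skin were counted with the same limits on the deposited signals. Of 8 measured genes of the spinous layer, none was higher and 1, the metallothionein gene Mt4, was lower in KO than in WT. Of 11 genes of the outer root sheath and bulge, 1 was higher and 4 were lower, among them Gjb6, a connexin, with 1921 in WT, 53.6 in KO and 115 in KOE. Of 8 sebaceous gland genes, 1 was higher and none was lower in KO, and no gene was past the cut-off in KOE vs. KO.

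In the dermis and below it, 1 of 8 fibroblast genes was lower in KO than in WT, Col1a1, with 16664 in WT, 5880.4 in KO and 16038 in KOE. All 7 measured adipocyte genes had lower signals in KO than in either other pool, past the cut-off. Of 10 skeletal muscle genes, KO was lower than WT for 9, and KOE was above KO for all 10. Both comparisons share the KO array. Cst6, Klk7, Klk8 and Klk10 were past the cut-off in none of the 3 comparisons as deposited. Of these, only Klk10 was past it under an alternative, the common median.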
